A study of Mus musculus with 4 samples.

Results

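Most of the genes described here encode proteins of the spliceosome core or SR proteins. They were taken by symbol: every gene whose name begins with Srsf, Snrp, Sf3, Prpf, Lsm followed by a digit, Tra2 or U2af. The symbol rule matched 63 of 15733 listed protein-coding genes, all 63 on autosomes, and 62 passed the filter on low counts (a count of about 10 or more in enough libraries) and were tested. They were sorted by role into 13 SR proteins, 13 proteins of the U1 and U2 snRNPs, 8 Sm core proteins, 3 U2AF genes, 13 PRPF factors and 13 LSm proteins. The symbols also take in LSm genes of other roles, such as Lsm10, Lsm11 and Lsm12, which are counted below among the splicing genes. They do not take in every spliceosome gene, and 100 further splicing genes were examined beside them.

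Mouse testicular cells in suspension were held ex vivo for 12 h either with 2.5 µM BMH21, a DNA intercalator that blocks transcription of ribosomal DNA by RNA polymerase I, or with DMSO as the mock control. Pachytene spermatocytes, cells in the long stage of meiotic prophase in which homologous chromosomes are synapsed, were then sorted by Hoechst staining, and their mRNA was sequenced. There were 2 libraries a group, which the series' design text calls biological replicates, and with so few the test borrows its estimate of spread from all genes. Strain, age and any pooling of animals are not stated in the labels, and both groups went through the same culture and sort. Counts over the listed genes totalled 30964370 to 41548269 per library.

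The labelled cell type was checked against marker genes. All 10 pachytene markers were measured and summed to 8568 to 8875 CPM (counts scaled to library size, with no correction for length) per library. After BMH21, 4 of them were called higher and 5 lower. This was 90.0% of the 10, against 29.1% of all genes tested and 39.2% of those with 10 CPM or more. Spermatid markers summed to 236 to 247 CPM, with 0 of 8 called, and spermatogonial markers to 15.6 to 19.8 CPM, with Zbtb16 and Kit called lower. Sertoli, Leydig, macrophage and peritubular or endothelial markers each summed to under 10 CPM in every library. The Leydig marker Star was the only 1 of their 9 tested genes that was called, lower. The other tested Leydig marker was higher but not called, and the median log2 fold change of these 2 was 0.27. Sox9, Wt1, Cldn11, Rhox5 and Gata4, markers of Sertoli cells, were not among the listed genes. The part of these cells in the results below was not tested. In bulk RNA, fewer cells of a type and less RNA per cell cannot be told apart.

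As background, introns are removed by small nuclear ribonucleoproteins (snRNPs). The U1 snRNP pairs with the 5′ splice site, U2AF and then the U2 snRNP mark the 3′ end and the branch point, and the U4/U6.U5 tri-snRNP joins them to form the catalytic machine, to which PRPF proteins belong. SR proteins bind exons through RNA recognition motifs and recruit these parts through a domain rich in arginine and serine. Many SR protein genes carry a conserved exon with an early stop codon, a poison exon, whose inclusion sends the mRNA to nonsense-mediated decay (NMD). Meiotic spermatocytes are known for a complex pattern of alternative splicing.

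Transcripts of the genes taken by symbol moved in both directions after BMH21, and mostly by little. Of the 62 genes tested, 15 rose, 7 fell and 40 were not called, 35.5% called in all (quasi-likelihood test of edgeR, p adjusted by Benjamini-Hochberg over 13793 genes, threshold 0.05). Over all genes tested, 16.5% rose and 12.5% fell, 29.1% together. Where the mean level reached 10 CPM, 39.2% of all genes were called (22.0% higher, 17.2% lower), and so were 21 of the 54 splicing genes at that level. The share called thus lay close to that among all genes of such levels. By p before adjustment, under 0.05, 22 splicing genes were higher and 8 lower, where 37.5% of all genes passed (20.6% higher, 16.9% lower), and 48.5% of those with 10 CPM or more (26.9% higher, 21.6% lower). The median log2 fold change was 0.03 (quartiles -0.09 and 0.14), against 0.00 over all genes tested (quartiles -0.17 and 0.18), and the median size of a called change was 0.20 against 0.34. A log2 change over 0.5 in size was found in 4 genes, Srsf12, Prpf39, Snrpd1 and Srsf6, and none reached 1.

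Both libraries of a group lay apart from both of the other in 42 of the 62 genes (67.7%), where 60.9% of all genes tested and 69.3% of those reaching 10 CPM did so. The split of the calls depended on the scaling of libraries: under upper quartile scaling, which shifted the log2 fold changes of all genes by a median of -0.05, 11 rose and 9 fell. DESeq2 gave 12 and 5, where it called 13.1% of all genes higher and 8.63% lower. The count of lower genes was 3 without mock replicate 1 and 4 without BMH21 replicate 2. In the authors' deposited table, 0 of the 63 genes carried the mark for a gene higher or lower, a mark given there to log2 changes of at least 1 in size.

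**Figure D1:**
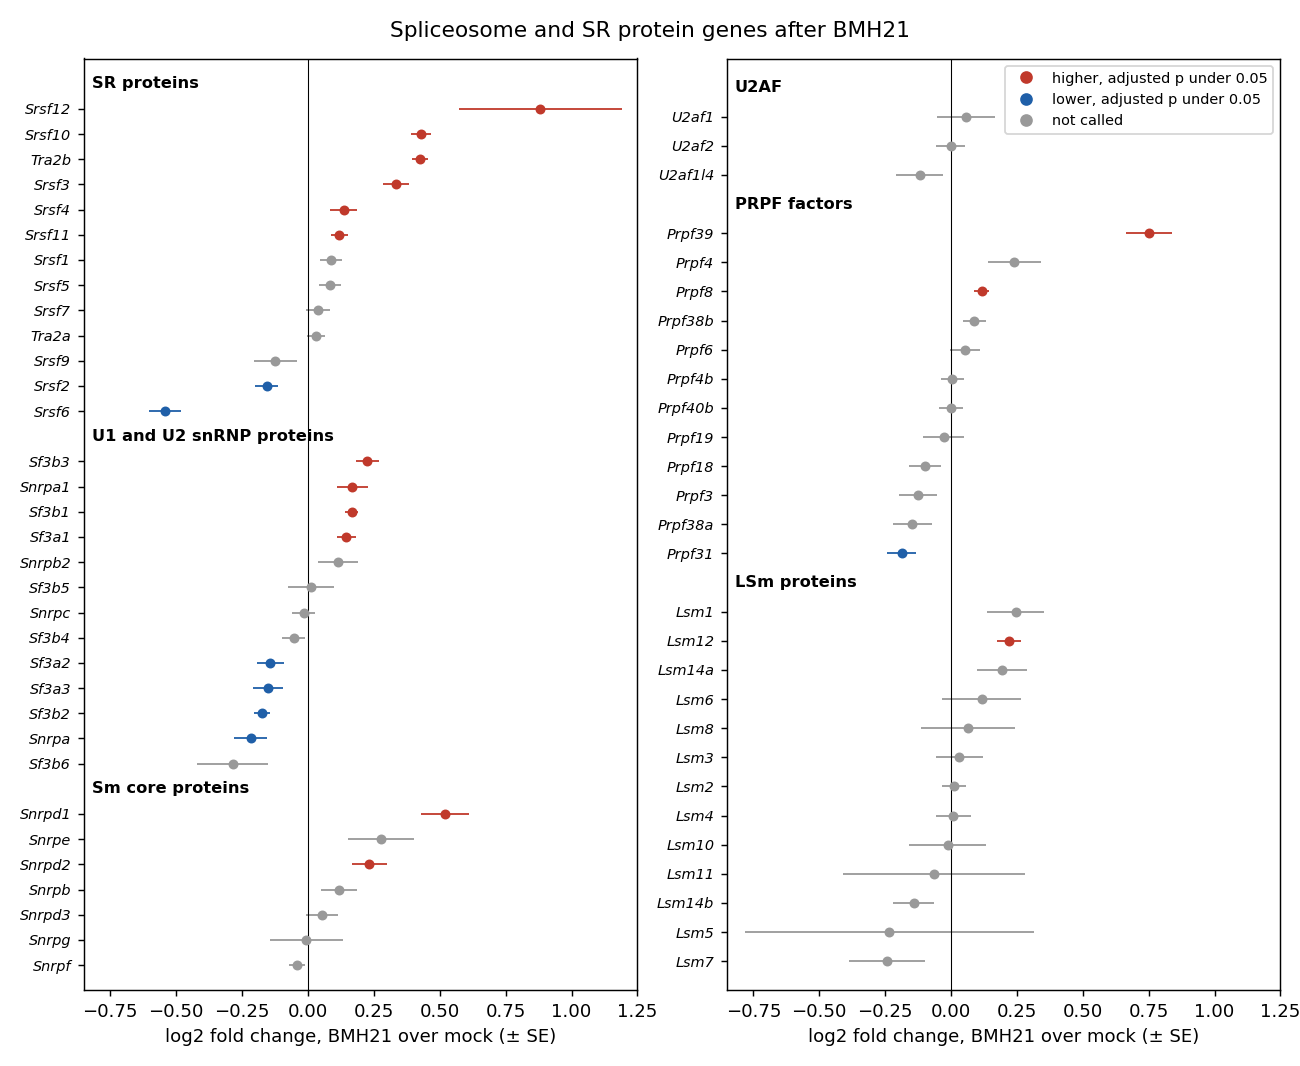
Log2 fold change (BMH21 over mock, x axis) with its standard error for the tested genes described in the text, by role. Points in red were called higher and points in blue lower; most lie within 0.25 of 0, and Srsf12, Prpf39, Snrpd1 and Srsf6 lie beyond 0.5.

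The SR proteins held 8 of the 22 calls, 61.5% of those tested, against 39.2% of all genes with 10 CPM or more. The share called was 61.5% for U1 and U2, 28.6% for Sm core, 23.1% for PRPF, 7.69% for LSm and 0% for U2AF genes. Levels differed too, with a median of 107 CPM for SR proteins and 16.0 CPM for LSm proteins. The part of level in these shares was not tested. Of 13 tested, 6 rose (Tra2b, Srsf10, Srsf3, Srsf11, Srsf12 and Srsf4), 2 fell (Srsf6 and Srsf2) and 5 were not called; the median log2 fold change was 0.09. Together their transcripts summed to 1540.2 and 1545 CPM in mock and 1686 and 1729 CPM in BMH21, 10.7% more. The BMH21 libraries were above the mock libraries in this sum. Over all 63 genes the sum was 5.25% higher in BMH21. By role it changed by 5.02% for LSm, 3.94% for Sm core, 3.44% for PRPF, 2.36% for U1 and U2 and -1.34% for U2AF genes. These sums rest on TMM scaling, and upper quartile scaling shifted the log2 fold changes of all genes by a median of -0.05. Tra2b and Srsf10 together gained 128 CPM, where the net change over the 13 SR protein genes was 165 CPM. That net change includes falls, such as those of Srsf6 and Srsf2, which offset part of the rises. The other 11 genes, these falls included, summed to 1164 and 1176 CPM in mock and 1200 and 1214 CPM in BMH21, 3.14% more.

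Tra2b, which encodes the splicing activator transformer-2 beta (chr16:22244549-22266005 on GRCm38), was at 221 and 220.4 CPM in the mock libraries and at 291 and 301 CPM with BMH21. It rose 1.34-fold (log2 fold change 0.43 ± 0.03 (SE), edgeR adjusted p = 1.13e-18), the smallest p of the set. A pseudogene copies 25.5% of the longest coding transcript of Tra2b, so part of its reads may be shared. The paralog Tra2a (chr6:49243924-49264033) was at 212 and 218 CPM in mock and 214 and 225 CPM in BMH21. These groups overlapped (0.03 ± 0.03 (SE), edgeR adjusted p = 0.57). The ratio of Tra2b to Tra2a counts, not corrected for length, was 1.04 and 1.01 in mock and 1.36 and 1.34 in BMH21; with 2 libraries against 2 an exact two-sided permutation test cannot go below the p of 0.333 it gave here.

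Srsf10, whose protein represses splicing when dephosphorylated (chr4:135855747-135869908), went from 155 and 149 CPM to 195 and 214 CPM. All its BMH21 values were above the mock values, and it rose 1.35-fold (0.43 ± 0.04 (SE), edgeR adjusted p = 4.25e-15). Pseudogenes copy 14.6% of the longest coding transcript of Srsf10. Srsf12, the gene of a related repressor, was near the floor of detection, at 1.45 and 1.28 CPM in mock and 2.75 and 2.32 CPM in BMH21, from 40 to 91 counts a library (0.88 ± 0.31 (SE), edgeR adjusted p = 0.0242). Its call was lost in DESeq2 (0.89) and with either mock library (replicate 1, 0.98; replicate 2, 0.80) or BMH21 replicate 1 (0.76) left out.

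Srsf3, the smallest SR protein and an adaptor for mRNA export (chr17:29032628-29043373), was at 79.0 and 80.7 CPM in mock and at 105 and 96.4 CPM in BMH21. It rose 1.26-fold (0.33 ± 0.05 (SE), edgeR adjusted p = 1.02e-07), and the groups did not overlap. Near-identical copies covered 49.5% of its longest coding transcript, the protein-coding model Gm12355 among them, so part of its reads may be shared. Its paralog Srsf7 was not called (0.04 ± 0.05 (SE), edgeR adjusted p = 0.612); the ratio of Srsf3 to Srsf7 counts was 0.805 and 0.778 in mock and 0.995 and 0.948 in BMH21.

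Srsf6 was the SR protein gene that fell most (chr2:162931528-162937121). It was at 67.1 and 69.0 CPM in mock and at 47.1 and 46.3 CPM in BMH21, with no overlap, and fell by 0.54 ± 0.06 (SE) on the log2 scale (edgeR adjusted p = 2.27e-11), a level 1.46-fold lower. Srsf4, which encodes a close relative of the same domain plan, moved the other way, from 73.7 and 74.2 CPM to 80.4 and 82.1 CPM (0.14 ± 0.05 (SE), edgeR adjusted p = 0.0385). The call on Srsf4 was lost under upper quartile scaling (0.09), in DESeq2 (0.14) and whichever library was left out (0.12 to 0.15), and an annotated transcript on the opposite strand, Gm12992, covers 43.0% of its exon bases. The ratio of Srsf6 to Srsf4 counts was 0.911 and 0.929 in mock and 0.586 and 0.564 in BMH21.

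Srsf2, the gene of the classical speckle protein SC35, fell from 114 and 112 CPM to 101 and 102 CPM (-0.16 ± 0.04 (SE), edgeR adjusted p = 0.00453; not called without mock replicate 1, at -0.14). Exons of Mettl23 and Mfsd11 cover 15.6% and 9.74% of the exon bases of Srsf2 on the opposite strand. Mettl23 stood at 78.6 to 84.3 CPM per library and Mfsd11 at 254 to 271 CPM, and neither was called (-0.05 and -0.03). Their part in the Srsf2 result was not tested. Srsf11 rose from 245 and 249 CPM to 265 and 272 CPM (0.12 ± 0.03 (SE), edgeR adjusted p = 0.00169; not called under upper quartile scaling, at 0.07, or without mock replicate 1, at 0.11). The 5 genes not called were Srsf1, the founding SR protein, Srsf5, Srsf7, Srsf9 and Tra2a, with log2 fold changes from -0.12 (Srsf9) to 0.09 (Srsf1).

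The promoters of the 4 SR protein genes with the smallest p are shown because Tra2b, Srsf10 and Srsf3 rose while Srsf6 fell. Each line gives the 200 bases before the first transcription start that RefSeq lists (GRCm38.p6), 5′ to 3′ on the gene's strand, with matches to the GC box GGGCGG, the CCAAT box, the TATA box TATAAA and the CRE core TGACG, on either strand, in capitals. The windows are chr16:22266006-22266205 (minus strand), chr4:135855871-135856070, chr17:29032460-29032659 and chr2:162931308-162931507 (plus strand).
Tra2b: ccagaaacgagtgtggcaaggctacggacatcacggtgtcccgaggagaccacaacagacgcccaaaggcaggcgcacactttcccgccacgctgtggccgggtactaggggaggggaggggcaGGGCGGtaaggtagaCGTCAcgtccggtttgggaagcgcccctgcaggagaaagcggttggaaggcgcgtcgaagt
Srsf10: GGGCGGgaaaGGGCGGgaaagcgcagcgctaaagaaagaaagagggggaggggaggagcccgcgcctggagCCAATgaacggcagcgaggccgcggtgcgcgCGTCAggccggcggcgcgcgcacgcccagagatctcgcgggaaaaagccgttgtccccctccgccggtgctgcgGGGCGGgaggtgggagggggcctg
Srsf3: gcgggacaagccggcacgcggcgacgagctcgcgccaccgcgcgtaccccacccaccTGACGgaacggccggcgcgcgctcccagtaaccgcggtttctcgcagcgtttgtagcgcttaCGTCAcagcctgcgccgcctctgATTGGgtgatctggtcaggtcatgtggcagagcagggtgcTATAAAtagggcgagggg
Srsf6: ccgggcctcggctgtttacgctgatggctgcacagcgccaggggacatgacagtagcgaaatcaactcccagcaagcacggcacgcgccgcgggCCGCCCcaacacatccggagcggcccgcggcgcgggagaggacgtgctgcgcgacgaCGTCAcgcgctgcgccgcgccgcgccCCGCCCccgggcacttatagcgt

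The RefSeq and GENCODE starts differ for some of these genes. The Srsf10 window begins 124 bases after the GENCODE start and lies wholly inside the gene as given above, and the last 32 bases of the Srsf3 window lie inside its gene, while those of Tra2b and Srsf6 lie outside theirs.

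The CRE core stood in each of the 4 windows, the GC box in all but that of Srsf3, and the TATA box in that of Srsf3 alone. Of the 62 tested genes, 52 had a window in the RefSeq table, as did 10574 of all genes tested. TGACG was found in 16 of the 52 (30.8%) and in 23.3% of all windows, and in 6 of 13 genes that rose and 2 of 7 that fell. The GC box was in 59.6% against 53.1%, CCAAT in 38.5% against 32.4%, TATAAA in 7.69% against 4.98%, and the ETS motif CCGGAAG in 23.1% against 12.4%. The full CRE TGACGTCA, which contains the core, was in 3 of 52 and 2.53% of all, the E-box CACGTG in 3 and 7.06%, the MYB core AACNG in 36 and 63.6%, and the NRF1 and YY1 motifs in 0, against 1.47% and 0.340%. The median ratio of observed to expected CpG was 0.950 in the splicing genes and 0.723 over all windows, at the same median GC content of 60.5%. These matches are letters in a window and no measure of binding.

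The U1 and U2 snRNP proteins changed in both directions in equal number. Of 13 tested, 4 rose (Sf3b1, Sf3b3, Sf3a1 and Snrpa1), 4 fell (Sf3b2, Snrpa, Sf3a2 and Sf3a3) and 5 were not called, and the median log2 fold change was -0.02. Subunits of the SF3b complex, which holds the branch point adenosine, and of SF3a, which joins it to the U2 snRNP, were on both sides.

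Sf3b1, the largest subunit (chr1:54985169-55027481), had the most counts of the whole set, 515 and 514 CPM in mock and 575 and 579 CPM in BMH21. It rose by 0.17 ± 0.02 (SE) on the log2 scale (edgeR adjusted p = 1.13e-07), a 1.12-fold difference with no overlap between groups. Its partner Sf3b2 (chr19:5273932-5295455) went from 337 and 332 CPM to 297 and 297 CPM, a fall of 0.17 ± 0.03 (SE) (edgeR adjusted p = 1.41e-06). The ratio of Sf3b1 to Sf3b2 counts was 1.53 and 1.55 in mock and 1.94 and 1.95 in BMH21. An annotated antisense transcript covers 2.84% of the exon bases of Sf3b2.

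Sf3b3, a scaffold subunit of SF3b, rose from 98.6 and 103 CPM to 114 and 122 CPM (0.23 ± 0.05 (SE), edgeR adjusted p = 4.58e-05), and Sf3a1 from 169.9 and 166 CPM to 182 and 189.6 CPM (0.15 ± 0.04 (SE), edgeR adjusted p = 0.00109). Sf3a2 went from 82.0 and 79.4 CPM to 73.8 and 72.5 CPM (-0.14 ± 0.05 (SE), edgeR adjusted p = 0.0315). Sf3a3 went from 67.2 and 65.1 CPM to 58.4 and 60.7 CPM (-0.15 ± 0.06 (SE), edgeR adjusted p = 0.038). The SF3a genes thus did not move as a block, Sf3a1 being higher and the other subunits lower. Sf3a2 lost its call in DESeq2 (-0.14) and whichever library was left out (-0.16 to -0.12), and Sf3a3 in DESeq2 (-0.15) and with either mock library (-0.13 and -0.17) or BMH21 replicate 1 (-0.13) left out. Exons of Plekhj1 cover 16.1% of the exon bases of Sf3a2 on the opposite strand. Plekhj1 itself was at 37.4 and 36.1 CPM in mock and 31.4 and 33.3 CPM in BMH21 (-0.19, edgeR adjusted p = 0.061), the same direction as Sf3a2, and its part in that result was not tested. Sf3b4, Sf3b5 and Sf3b6 were not called, at -0.05, 0.01 and -0.28.

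Snrpa, which encodes an RNA-binding protein specific to the U1 snRNP, fell from 57.8 and 57.7 CPM to 51.9 and 47.5 CPM (-0.22 ± 0.06 (SE), edgeR adjusted p = 0.00545; not called without BMH21 replicate 2, at -0.16). Snrpa1, which encodes a U2 snRNP protein, rose from 55.8 and 55.8 CPM to 62.0 and 63.4 CPM (0.17 ± 0.06 (SE), edgeR adjusted p = 0.023). The call on Snrpa1 was lost in DESeq2 (0.17) and by upper quartile scaling (0.12). It was also lost with either mock library (0.17 for both) or BMH21 replicate 2 (0.15) left out. The model Gm45213 covers 4.67% of the exon bases of Snrpa1 on the same strand and was itself called higher, from 22.4 and 21.3 CPM to 25.8 and 27.8 CPM (0.30, edgeR adjusted p = 0.00835); its part in the Snrpa1 result was not tested. Exons of BC024978 cover 11.03% of the exon bases of Snrpa on the opposite strand. Snrpc, the third gene of a U1-specific protein, and Snrpb2, a partner of Snrpa1 in the U2 snRNP, were not called, at -0.02 and 0.11.

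**Figure D2:**
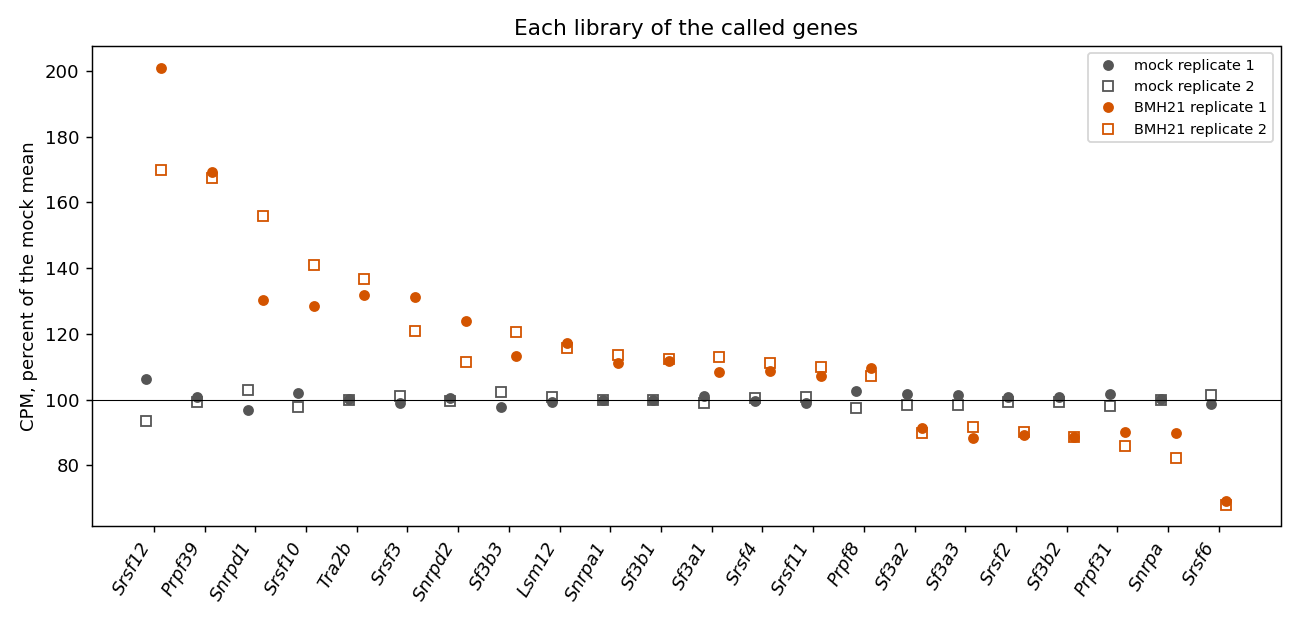
CPM of each library as a percent of the mock mean (y axis) for the 22 called genes, ordered by log2 fold change (x axis); mock libraries are grey, BMH21 libraries orange, replicate 1 filled and replicate 2 open. The mock libraries lie near 100 for every gene, and the BMH21 libraries lie above both mock libraries in the 15 higher and below both in the 7 lower genes.

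The Sm core proteins form the ring that most spliceosomal snRNPs share. Of 7 tested, 2 rose, 0 fell and 5 were not called. Before adjustment, edgeR had 3 higher and 0 lower, and DESeq2 called 2 higher and 0 lower. Snrpd1 (SmD1) went from 20.2 and 21.5 CPM to 27.1 and 32.4 CPM, groups that did not overlap (0.52 ± 0.09 (SE), edgeR adjusted p = 4.44e-06). Snrpd2 (SmD2), which binds it in the ring, rose from 45.8 and 45.3 CPM to 56.5 and 50.8 CPM (0.23 ± 0.07 (SE), edgeR adjusted p = 0.00415; not called without BMH21 replicate 1, at 0.15). A pseudogene copies part of each, 42.0% of the longest coding transcript of Snrpd1 and 25.1% of that of Snrpd2.

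Snrpf (SmF), with the most counts among the Sm genes, was at 264 and 258 CPM in mock and 249 and 258 CPM in BMH21 (-0.04 ± 0.03 (SE), edgeR adjusted p = 0.363; called lower under upper quartile scaling, at -0.09). Exons of Ccdc38 cover 65.9% of its exon bases on the opposite strand. Ccdc38 itself stood at 1423 to 1467 CPM per library, and the labels do not say whether the counting used strand, so the level of Snrpf is uncertain. Snrpb, Snrpd3, Snrpe and Snrpg were not called, at 0.12, 0.05, 0.28 and -0.01. Snrpn, the imprinted gene of an Sm protein known from brain, had 4 to 21 counts a library and was not tested.

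None of the 3 U2AF genes was called by edgeR or DESeq2, and before adjustment edgeR had 0 with p under 0.05 in either direction. U2af2, the subunit that binds the polypyrimidine tract, was at 67.4 and 64.8 CPM in mock and 65.8 and 66.5 CPM in BMH21 (0.00 ± 0.06 (SE)). U2af1, which reads the AG at the 3′ splice site, had a log2 fold change of 0.06 ± 0.11 (SE), with near-identical copies over 68.8% of its longest coding transcript. U2af1l4 was at -0.12 ± 0.09 (SE), and the model Gm49396 shares 65.6% of its exon bases on the same strand.

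Among the PRPF factors, 2 of 13 rose, 1 fell and 10 were not called. Prpf39, which encodes a protein associated with the U1 snRNP (chr12:65036333-65063386), went from 19.6 and 19.3 CPM to 32.9 and 32.5 CPM. This 1.68-fold rise (0.75 ± 0.09 (SE), edgeR adjusted p = 1.01e-10) was the largest among the called genes with over 10 CPM, and the replicates of each group lay close together. Fkbp3 overlaps 5.01% of its exon bases on the opposite strand and was itself not called (0.30, edgeR adjusted p = 0.228). Prpf8, the gene of the scaffold of the catalytic centre, rose from 317 and 301 CPM to 339 and 331 CPM (0.12 ± 0.03 (SE), edgeR adjusted p = 0.00142; not called under upper quartile scaling, at 0.07, or without mock replicate 2, at 0.08). Prpf31, which encodes a tri-snRNP protein, fell from 76.9 and 74.1 CPM to 68.0 and 64.8 CPM (-0.19 ± 0.05 (SE), edgeR adjusted p = 0.00571; not called without mock replicate 1, at -0.16, or BMH21 replicate 2, at -0.15). The annotated transcript Gm15927 covers 18.1% of the exon bases of Prpf31 on the opposite strand. The other tri-snRNP genes Prpf3, Prpf4 and Prpf6, the kinase gene Prpf4b and the ubiquitin ligase gene Prpf19 were not called, with log2 fold changes from -0.13 (Prpf3) to 0.24 (Prpf4). Prpf18, Prpf38a, Prpf38b and Prpf40b were not called either, from -0.15 (Prpf38a) to 0.09 (Prpf38b). Prpf4 was called without mock replicate 2 (0.34), Prpf38b without BMH21 replicate 1 (0.13) and Prpf38a under upper quartile scaling (-0.19).

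The LSm proteins, whose rings bind U6 snRNA (Lsm2 to Lsm8) or decaying mRNA (Lsm1 to Lsm7), had 1 call among 13 tested, that of Lsm12, also made by DESeq2. Before adjustment, edgeR had 3 higher and 0 lower. Lsm12, which belongs to neither ring, rose from 95.1 and 96.5 CPM to 112 and 111 CPM (0.22 ± 0.05 (SE), edgeR adjusted p = 6.78e-05). A pseudogene copies 24.6% of the longest coding transcript of Lsm12. Lsm2, with the most counts among them, was at 106 and 106 CPM in mock and 104 and 109.9 CPM in BMH21 (0.01 ± 0.04 (SE)). None of the remaining genes was called. Lsm1 and the P-body gene Lsm14a had log2 fold changes of 0.25 and 0.19, and Lsm6 and Lsm8 of 0.12 and 0.06. Lsm7, Lsm5 and Lsm14b were at -0.24, -0.23 and -0.14, and Lsm3 and Lsm4 at 0.03 and 0.01. Lsm10 and Lsm11, which form the U7 snRNP of histone mRNA processing, were at -0.01 and -0.06. The median over the 13 LSm genes was 0.01. Lsm5 and Lsm11 were weak, at 0.712 and 1.65 CPM on average, with standard errors of 0.55 and 0.34. Lsm6, Lsm7, Lsm8 and Lsm10 were at 5.67 to 8.72 CPM, with standard errors of 0.14 to 0.18. A change of the size seen in Lsm12 could not be detected in these genes, so they are not shown to be unchanged.

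Levels were compared between genes per kb of the longest coding transcript in GENCODE M21, averaged over the 4 libraries. Snrpf led at 299 CPM per kb, with the overlap given above, before Lsm2 (122), Tra2a (121), Snrpc (119), Sf3b2 (98.0) and Sf3b1 (88.1), and the median of the 63 genes was 28.0. Stretches near-identical to parts of 54 other genes, 19 of them protein-coding, cover 42.3% of the longest coding transcript of Snrpc, so its level is uncertain. Partners of 1 ring were far apart on this scale: among the Sm genes Snrpb stood at 38.7, Snrpd2 at 34.9, Snrpd1 at 29.5, Snrpd3 at 17.8, Snrpe at 17.5 and Snrpg at 8.99 CPM per kb. Of the 8 Sm genes, 6 have a near-identical copy elsewhere, and reads that map to several places may have been left uncounted, which was not tested. At the low end were Srsf12 (0.664), Lsm11 (0.256) and Snrpn (0.120). The order depends on the length used: over all annotated exon bases, Lsm2, Tra2a and Snrpc stood at 33.8, 31.3 and 18.5 CPM per kb, below Sf3b1 at 48.0.

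**Figure D3:**
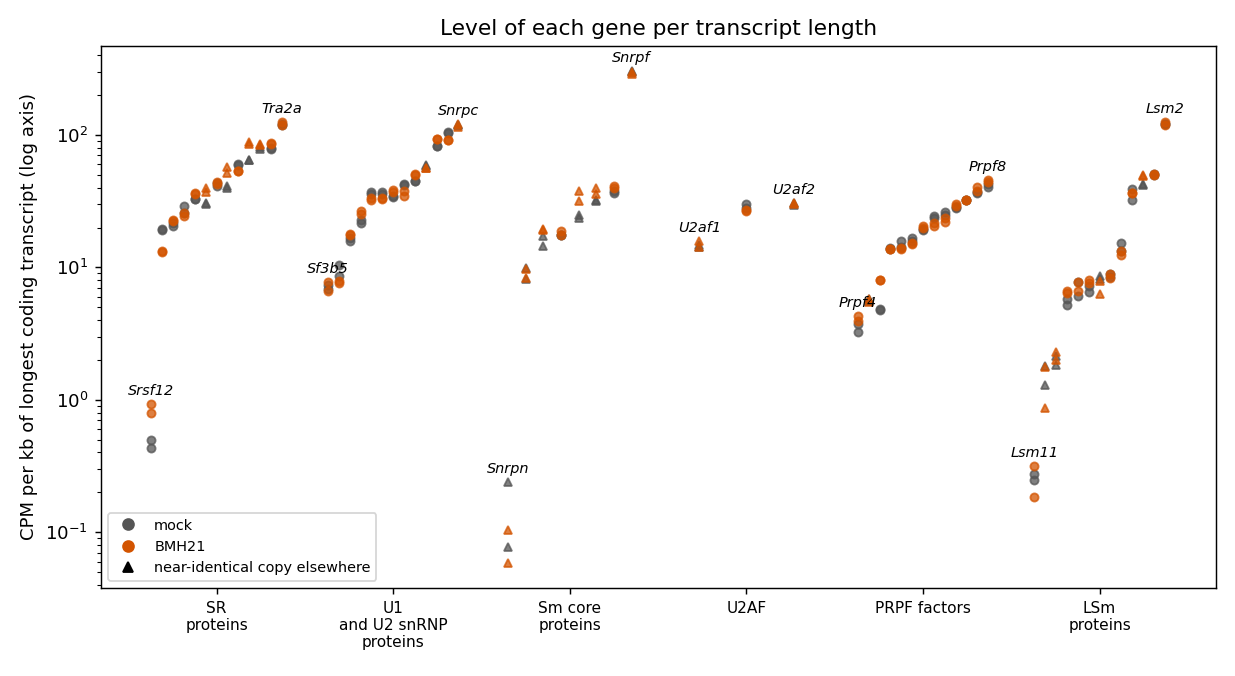
CPM per kb of the longest coding transcript (log axis) for each of the 63 genes by role, with mock libraries in grey and BMH21 libraries in orange; triangles mark genes with a near-identical copy elsewhere. Within a role the genes span 1 or more orders of magnitude in all but U2AF, while the libraries of 1 gene lie close together except in the weak genes.

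Annotated transcripts were examined as a feature the choice of genes did not use. An NMD transcript is annotated for 30 of the 63 genes (47.6%), against 27.8% of 13736 tested genes that matched the annotation. It was present in 11 of 13 SR protein genes, all but Srsf10 and Srsf12, in 3 of 3 U2AF genes, 7 of 13 PRPF, 4 of 13 LSm, 3 of 13 U1 and U2 and 2 of 8 Sm genes. Of the tested genes with such a transcript 7 of 30 rose and 4 fell, and of those without 8 of 32 rose and 3 fell. Of 18 tested genes with a near-identical copy elsewhere, 6 rose and 0 fell. Of 44 without a copy, 9 rose and 7 fell. The part of copies in the calls was not tested. The table gives 1 count per gene, so transcripts with and without a poison exon could not be told apart.

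The other splicing genes, taken from 5 lists that the symbol rule does not reach, also went both ways. Of 100 tested, 26 rose, 22 fell and 52 were not called, with a median log2 fold change of 0.02; without mock replicate 2 the count of lower genes was 12, and under upper quartile scaling 21 rose and 25 fell. Calls covered 48.0% of these 100 genes, against 29.1% of all genes tested and 39.2% of those with 10 CPM or more. Among the 5 lists the share ran from 32.1% (snRNP and B complex) to 68.4% (splice site recognition and SR-related). The part of level in these shares was not tested. Proteins that recognise splice sites or carry arginine and serine repeats had 7 higher and 6 lower of 19. Pnn (pinin) rose from 82.4 and 84.8 CPM to 118 and 129 CPM (0.56 ± 0.05 (SE), edgeR adjusted p = 4.05e-16), Rbm17, a U2-related factor, by 0.59 and Rnps1, an exon junction protein, by 0.54. Cherp fell by 0.27, the nuclear speckle scaffold gene Srrm2 by 0.17 and Srek1 by 0.27.

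The Prp19 complex and the factors of activation and catalysis had 8 higher and 6 lower of 29. The helicase gene Ddx42 rose from 88.1 and 92.6 CPM to 129 and 132 CPM (0.53 ± 0.04 (SE), edgeR adjusted p = 5.13e-16), Rbm22 by 0.48 and Isy1 by 0.47, while Cdc5l fell by 0.35, Ppil1 by 0.68 and the helicase gene Dhx15 by 0.13. Isy1 was not called without BMH21 replicate 2 (0.32), Ppil1 without mock replicate 2 (-0.46), and Dhx15 with either mock library (-0.12 and -0.14) or BMH21 replicate 1 (-0.12) left out. Cdc5l has 10 genes with near-identical stretches, so its reads may be shared.

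Of 28 further snRNP and B complex genes, 5 rose and 4 fell. Snrnp70, which encodes the U1-70K protein, fell from 171 and 169 CPM to 139 and 136 CPM (-0.30 ± 0.04 (SE), edgeR adjusted p = 9.48e-10). With Snrpa, 2 of the 3 genes of U1-specific proteins were thus lower, and Snrpc was not called. Rnpc3, of the minor spliceosome, fell by 0.56, while Luc7l, a U1-associated gene, rose by 0.44, Smu1 by 0.33 and Luc7l2 by 0.15. Snrnp25, a further minor spliceosome gene, was lower by the test (-0.37) but not in DESeq2 (-0.37) or without mock replicate 2 (-0.23) or BMH21 replicate 2 (-0.34).

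The 9 genes of kinases, import and phosphatase control of SR proteins held 3 higher and 2 lower calls. Clk3 rose from 87.5 and 84.0 CPM to 116 and 105 CPM (0.36 ± 0.05 (SE), edgeR adjusted p = 5.73e-09) and Clk2 fell from 94.6 and 93.4 CPM to 83.2 and 82.5 CPM (-0.18 ± 0.05 (SE), edgeR adjusted p = 0.00236). Both encode kinases that phosphorylate SR proteins in the nucleus. Dyrk1a rose by 0.31 and Srpk2 by 0.12, calls lost in DESeq2 (0.30 and 0.12) and without mock replicate 1 (0.23 and 0.07), that of Srpk2 also under upper quartile scaling (0.07) and that of Dyrk1a without BMH21 replicate 1 (0.24). Ppp1r8, which encodes a nuclear inhibitor of protein phosphatase 1, fell by 0.37 (not called without mock replicate 2, at -0.26).

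The snRNP assembly list, the SMN complex and the methylosome that load Sm rings onto snRNA, had 3 higher and 4 lower of 15. Gemin8 was the only X-linked gene of the 5 lists that was tested. It rose from 0.429 and 0.576 CPM to 9.99 and 8.80 CPM (4.24 ± 0.25 (SE), edgeR adjusted p = 1.94e-23). The mock values of Gemin8 were near the floor of detection. Stretches near-identical to it lie in 5 other genes, so its reads may be shared. Smn1, the gene of the central SMN protein, rose from 8.49 and 8.38 CPM to 12.4 and 11.4 CPM (0.50), and the export adaptor gene Phax from about 1 CPM by 1.51. Lower were Gemin2, from 7.13 and 7.71 CPM to 3.65 and 4.78 CPM (-0.81), with 18 genes holding near-identical stretches, and the methylosome genes Wdr77 (-0.52) and Prmt5 (-0.21). Of the Sm genes whose proteins the methylosome methylates, Snrpd1 was called higher, and Snrpb and Snrpd3 were not called.

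**Figure D4:**
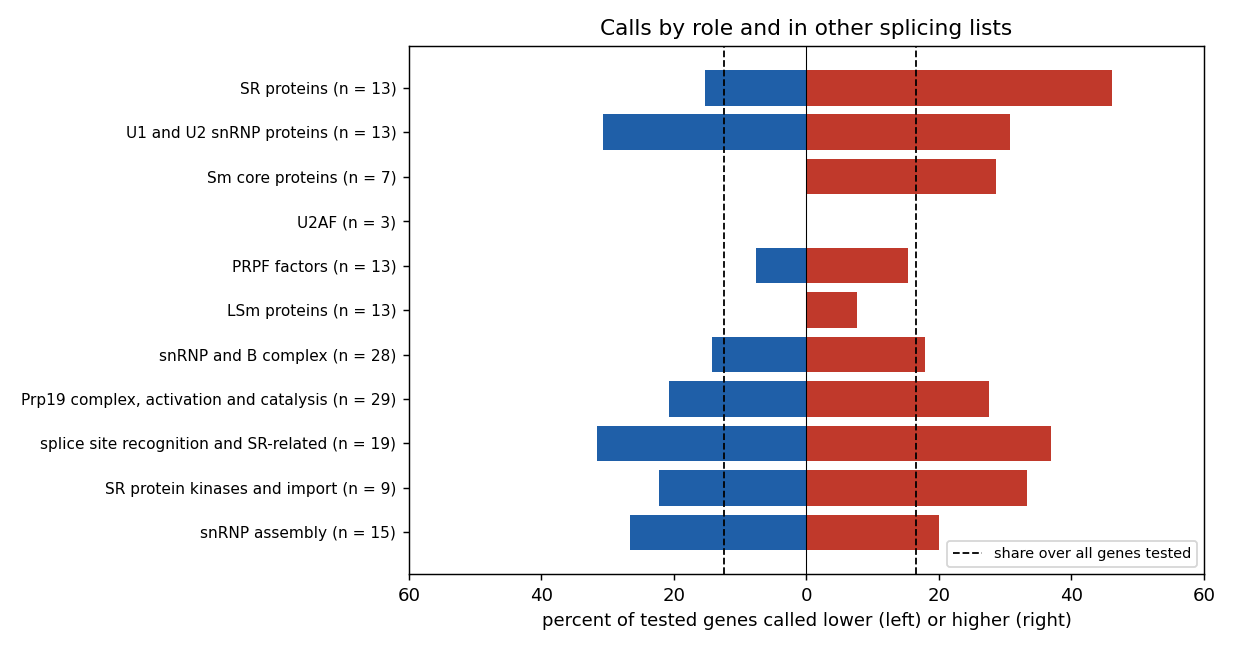
Percent of tested genes called lower (blue, left) and higher (red, right) in each role and in the 5 lists of other splicing genes; dashed lines give the share over all genes tested, 16.5% higher and 12.5% lower. Among genes with 10 CPM or more, which have no line here, the shares were larger, 22.0% higher and 17.2% lower. SR proteins show the longest bar to the right, U2AF has no call, and the number of genes behind each bar is small.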

How the data were processed

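mRNA libraries of 4 sorted pachytene samples (2 mock, 2 BMH21) were prepared by a strand-specific kit, as the labels' protocols state. The submitters' processing notes name mm10 as build and, with no settings, the tools STAR, fastp, featureCounts, SAMtools and DESeq2. The sources used here do not say whether counting used strand or how multi-mapped reads were treated. The authors deposited raw counts per gene, from which the tests start. The size-factor-normalized values (signal), log2 fold changes, Wald score and p-values that the authors deposited entered no test.

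Counts were fitted for all genes in R 4.3.3 with edgeR 4.0.16 (filterByExpr, minimum count 10, TMM scaling, quasi-likelihood test, group alone), with Benjamini-Hochberg adjustment over 13793 genes and a threshold of 0.05. CPM uses TMM-scaled library sizes. The SE is the size of the log2 fold change over the square root of F, an approximation. DESeq2 1.42.0, other scalings and filters, a replicate block and leaving out each library were alternatives. The code was tested on simulated counts. Gene positions, lengths, overlaps and transcript types come from GENCODE M21 (GRCm38), matched by gene identifier, since the positions in the table do not match that build. Near-identical copies are other genes whose transcripts align over at least 100 bases at 97% identity or more (blastn 2.17.0). Promoter windows are from RefSeq (GRCm38.p6), the first start listed per gene.

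The genes, their roles and the other lists were chosen with earlier results of these data known. Named by rule are all called genes of the set, the gene with the highest mean CPM of each role, any that did not pass the filter, and up to 3 called genes with the smallest p in each direction of each other list; the remaining genes of the set are named to account for its members, except 1 PRPF gene, which is counted but not reported here. Paralogs and subunits set side by side as ratios were chosen after their values were seen.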

Additional observations from a re-analysis of the deposited data

How the results depend on the processing

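Of the 22 genes called, 11 were called in all 10 alternatives (Tra2b, Srsf10, Srsf3, Srsf6, Sf3b1, Sf3b2, Sf3b3, Sf3a1, Snrpd1, Prpf39 and Lsm12), 11 lost the call in 1 or more, and 0 changed sign. Of the genes not called, 5 were called in 1 or more: Prpf4, Prpf38a, Prpf38b, Snrpe (0.42 without mock replicate 1) and Snrpf. With 1 library left out, the count of splicing genes called higher was 12 to 13, against 15, and lower 3 to 5, against 7; other splicing genes called lower numbered 12 to 19, against 22, and genes called in all 2997 to 3549, against 4013; a fit with fewer libraries has less power, and the lone library of a group was assumed to vary like the other group. The median log2 fold change of the set, 0.035, was 0.033 with RLE size factors, 0.033 without a filter, 0.033 with the stricter filter of 1 CPM, 0.039 with the replicate block, -0.010 under upper quartile scaling, which shifted all genes by a median of -0.05, and 0.029 to 0.042 with 1 library left out. Of the genes not called, 18 changed sign in 1 or more alternatives. Among these, Lsm2 was at -0.034 under upper quartile scaling and at -0.031 to 0.047 with 1 library left out, and U2af2 at 0.000427 without a filter and at -0.027 to 0.031 with 1 library left out. The replicate numbers share no stated source, and deviations of same-numbered libraries correlated at 0.01 over genes, so they were not treated as pairs; with the number as a block, 15 genes were called higher and 7 lower, and 3784 in all.

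Precision is limited by 2 libraries a group and, in Srsf12, Lsm5, Lsm11 and Snrpn, by counts under 100.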
